A study of Mus musculus with 9 samples.

Results

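Astrocyte marker RNA was followed in RNA bound to tagged ribosomes of the mouse dorsal striatum. The markers are 10 genes listed by name: Slc1a2, Slc1a3, Glul, Gja1, Aqp4, Slc4a4, Aldoc, Aldh1l1, Gfap and S100b. All 10 were among the 47729 gene identifiers of the deposited tables, and all 10 passed the filter of at least 1 CPM in at least 3 libraries (CPM, a gene's reads relative to all reads of the library). Their lowest value in any library was 1.01 CPM, for Gfap in control replicate 1, or 37 reads.

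RiboTag mice carry a ribosomal protein that gains a hemagglutinin (HA) tag in cells with Cre recombinase, and tagged polyribosomes are precipitated with magnetic beads. D1-Cre, active in cells that express the D1 dopamine receptor, set the intended source as the D1 medium spiny neuron, the output neuron of the direct pathway, and the labels call the material enriched for it. All mice were C57BL/6 at postnatal day 28 and all carried D1-Cre and the tag. The 3 control libraries came from mice with these alleles alone (D1-Cre-RT), and the other 6 from mice that also carried floxed TrkB (D1-Cre-flTrkB-RT), 3 labelled as showing stereotypy (repetitive behavior) and 3 as not showing it. The labels call the libraries of a group biological triplicates and give no sex, batch or number of mice per library, so p-values measure the spread between these libraries. No library of RNA before precipitation was analysed here, so enrichment was not measured. In a bulk precipitate more cells of a type and more RNA per cell cannot be told apart, and neither can RNA of tagged cells and RNA of other cells that came down with the beads.

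Astrocytes take up transmitter glutamate through the transporters GLAST (Slc1a3) and GLT-1 (Slc1a2) and turn it into glutamine with glutamine synthetase (Glul). They are coupled by gap junctions of connexin 43 (Gja1), let water pass at their endfeet on vessels through aquaporin 4 (Aqp4), and carry bicarbonate with sodium through Slc4a4. The cytosolic enzymes aldolase C (Aldoc) and 10-formyltetrahydrofolate dehydrogenase (Aldh1l1), the intermediate filament protein Gfap and the calcium-binding protein S100b complete the usual marker set. In the striatum astrocytes lie among the medium spiny neurons and their processes wrap synapses. Several of these genes are not restricted to astrocytes: Slc4a4, Glul, S100b and Aldoc are also transcribed in neurons or oligodendrocytes.

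The libraries held 27103152 to 40578512 reads, and a count of 0 would allow up to 0.0739 to 0.111 CPM (3 reads per library, counting error only). Ntrk2, the gene of TrkB, checked the deletion first: it stood at 319, 385 and 487 CPM in the controls, 34.3, 43.9 and 40.7 CPM with stereotypy and 23.4, 14.1 and 19.2 CPM without, a log2 change of -3.28 and of -4.33 against the controls. The cell source of the remaining Ntrk2 RNA was not tested, so its level does not measure the degree of deletion in D1 neurons. The labelled cell type was checked with 8 D1 markers, whose summed level in CPM was 1868 to 2527 in the controls, 2296 to 2397 with stereotypy and 1548 to 1917 without. For comparison, 5 D2 medium spiny neuron markers summed to 443 to 1433, 259 to 424 and 597 to 1050 CPM, with the highest value of the controls in replicate 3 and the highest value without stereotypy also in replicate 3. The 10 astrocyte markers summed to 591, 601 and 656 CPM in the controls, 761, 783 and 761 CPM with stereotypy and 586, 537 and 728 CPM without.

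The letters before the start sites of some of the markers are shown as a description, and their part in the levels was not tested. The 250 bases before the RefSeq start sites (GRCm38.p6) were searched on both strands for 6 short motifs. The table of promoters held 9 of the 10 markers, in 11 windows. Those of the 3 markers with the smallest adjusted p and of the marker with the largest one are shown, as far as they lie outside exons, with motif letters in capitals. Gja1 (chr10:56377050-56377299), Aldoc (chr11:78322823-78322967), Slc4a4 (its second listed start, chr5:89027716-89027965) and Slc1a2 (chr2:102706188-102706355) are all on the plus strand and are written 5′ to 3′. The Slc4a4 and Slc1a2 stretches lie inside the annotated gene bodies, before internal starts at 89027966 and 102706438, and not at the 5′ ends. The Aldoc and Slc1a2 stretches end 105 and 82 bases before the start used.
Gja1: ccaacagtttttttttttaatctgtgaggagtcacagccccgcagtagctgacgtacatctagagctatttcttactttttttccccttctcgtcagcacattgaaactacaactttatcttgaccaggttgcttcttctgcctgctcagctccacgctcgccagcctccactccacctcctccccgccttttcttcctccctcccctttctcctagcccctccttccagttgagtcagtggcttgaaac
Aldoc: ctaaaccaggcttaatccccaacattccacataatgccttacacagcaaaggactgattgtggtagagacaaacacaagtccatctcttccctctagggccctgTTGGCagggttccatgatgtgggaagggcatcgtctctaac
Slc4a4: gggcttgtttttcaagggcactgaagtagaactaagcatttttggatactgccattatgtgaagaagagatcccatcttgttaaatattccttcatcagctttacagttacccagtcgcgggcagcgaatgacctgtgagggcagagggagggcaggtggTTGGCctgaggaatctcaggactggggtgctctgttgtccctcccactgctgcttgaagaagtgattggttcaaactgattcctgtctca
Slc1a2: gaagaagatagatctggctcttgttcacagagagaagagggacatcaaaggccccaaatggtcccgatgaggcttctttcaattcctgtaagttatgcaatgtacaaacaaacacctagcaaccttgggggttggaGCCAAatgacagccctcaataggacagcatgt
The capitals are the letters of the short nuclear factor I site, TTGGC or its complement GCCAA, once each in the Aldoc, Slc4a4 and Slc1a2 stretches, while the Gja1 stretch held no match to any of the 6. Nuclear factor I proteins are transcription factors of astrocyte development. This short site was in 6 of the 11 marker windows and in 41.5% of all 32851 windows of that length. The full site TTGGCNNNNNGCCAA, which contains the short one, was in 0 of 11 and in 0.0365% of all windows, and the STAT site TTCNNNGAA in 2 of 11 and 7.02%. The SOX letters ACAAAG were in 0 of 11 and 16.5%, the TATA box TATAAA in 1 of 11 and 12.4%, and the GC box GGGCGG in 5 of 11 and 32.7%. A match describes letters in a window and is not a measured binding site.

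Levels of the markers spanned a wide range in the controls. Per kilobase of exon (the union of exons in GENCODE M21, GRCm38), Glul was highest with 33.7 ± 10.7 CPM per kilobase (SD, n = 3, as for all control values here), followed by Slc4a4 with 25.5 ± 2.10 and Slc1a2 with 14.2 ± 5.34. Aldoc stood at 6.64 ± 0.518 and S100b at 3.32 ± 1.16. The remaining 5 markers were all below 1 CPM per kilobase: Slc1a3 0.758 ± 0.083, Aldh1l1 0.522 ± 0.139, Gfap 0.406 ± 0.146, Gja1 0.288 ± 0.025 and Aqp4 0.231 ± 0.030. Among neighbours in this order, the control libraries of Glul and Slc4a4, of Slc1a3 and Aldh1l1, of Aldh1l1 and Gfap, and of Gfap and Gja1 overlapped. With the longest transcript as the length, Gja1 moved from rank 9 to 7 and Aldh1l1 from 7 to 9, and the other 8 kept their ranks. The 4 low genes Aqp4, Gfap, Gja1 and Aldh1l1 rested on 37 to 106 reads per control library, the most abundant, Slc4a4, on 8127 to 10544.

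In the stereotypy group Slc1a3, Gja1, Aqp4, Slc4a4 and Aldoc exceeded the controls, Aqp4 by 3.18 times, Gja1 by 2.68 and Slc1a3 by 2.50 as ratios of means. Aldoc was the only one of the 10 that passed the test in the group without stereotypy against the controls, at 1.55 times. Slc1a3, Gja1 and Slc4a4 were higher with stereotypy than without. Slc1a2 and Glul differed by at most 1.11 times between any group and the controls and passed no test. Differences are given on the log2(CPM + 1) scale, which understates those of the low genes, with limma's 95% interval and Benjamini-Hochberg adjusted p over all 13695 genes tested, at a threshold of 0.05. Both TrkB-deleted groups are compared with the same 3 control libraries, so their values against the controls are not independent of each other. Positions are those of the gene bodies in GENCODE M21 on GRCm38, and all 10 genes are protein coding.

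**Figure D1:**
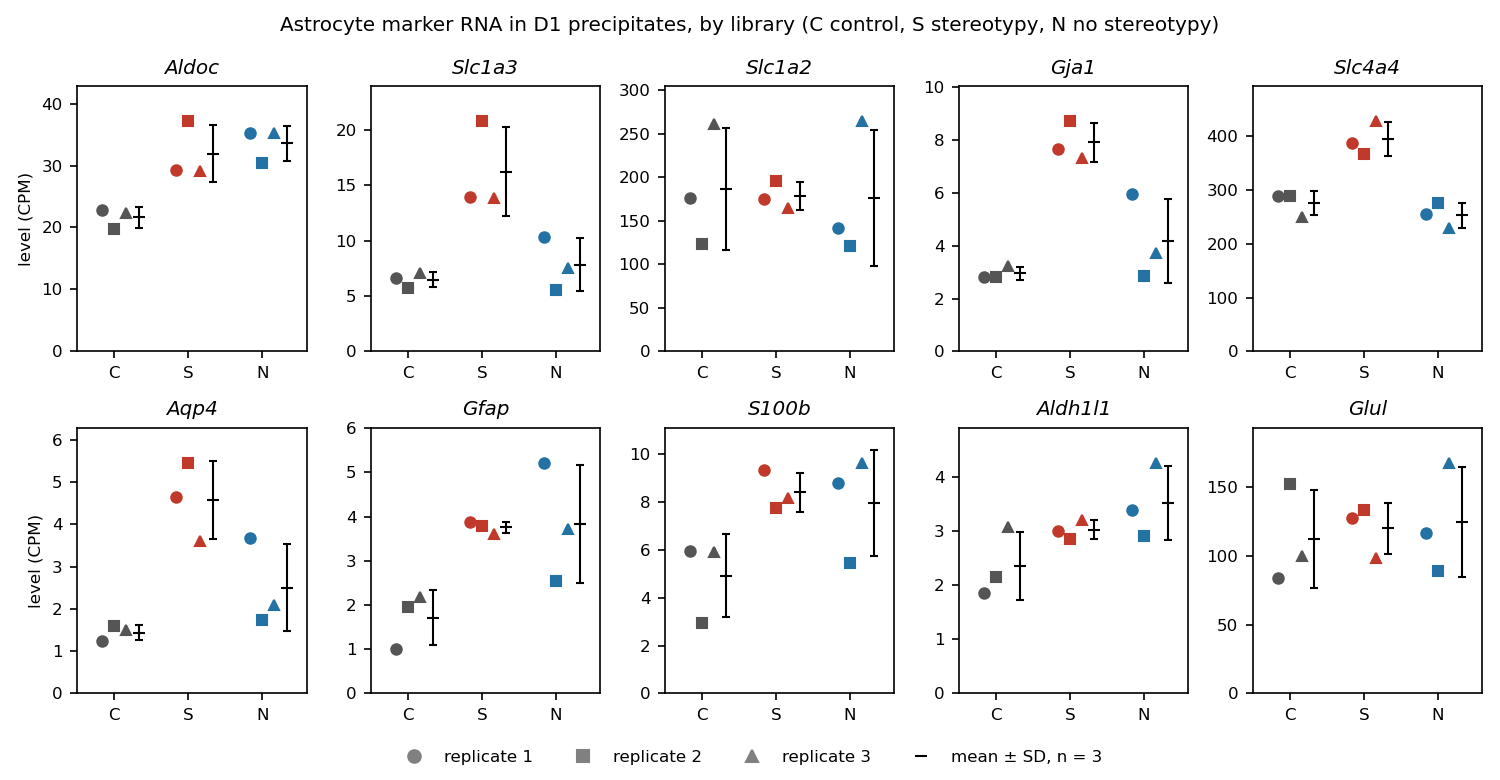
Level in CPM of each of the 10 astrocyte markers in every library (C control, S stereotypy, N no stereotypy; circle, square and triangle are replicates 1, 2 and 3; the bar is mean ± SD, n = 3), each panel with its own axis from 0. The stereotypy libraries of Slc1a3, Gja1 and Slc4a4 lie above all 6 others, while those of Slc1a2 and Glul lie within the range of the other groups.

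Of the genes of glutamate uptake and conversion, Slc1a3 (ENSMUSG00000005360, chromosome 15, 8634124 to 8710764), which encodes GLAST, stood at 6.60, 5.71 and 7.11 CPM in the controls, 13.9, 20.8 and 13.8 CPM with stereotypy and 10.3, 5.57 and 7.54 CPM without. The 3 stereotypy libraries were above all 6 others, with replicate 2 the highest, and the other groups overlapped. Slc1a3 was higher with stereotypy than in the controls by 1.18 (interval 0.71 to 1.66, adjusted p = 0.0155) and than without stereotypy by 0.97 (0.50 to 1.45, adjusted p = 0.0258), and the group without stereotypy differed from the controls by 0.21 (-0.27 to 0.68, adjusted p = 0.621). Without stereotypy replicate 2 the differences were 0.998 (0.0730) and 0.79 (0.0828). The call between the deleted groups was also lost without stereotypy replicate 3 (0.0849), and without replicate 1 (0.0610) or 2 (0.0814) of the group that lacked stereotypy.

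Slc1a2 (ENSMUSG00000005089, chromosome 2, 102658659 to 102790784), which encodes GLT-1, the main glutamate transporter of the forebrain, stood at 176, 123 and 262 CPM in the controls, 175, 196 and 165 CPM with stereotypy and 142, 121 and 265 CPM without. All 3 groups overlapped. The high libraries were control replicate 3 and no stereotypy replicate 3, the libraries with the highest D2 marker sum of their groups (1433 and 1050 CPM); the part of these markers in the level was not tested. Slc1a2 differed by 0.00 with stereotypy (-0.65 to 0.65, adjusted p = 0.9996) and by -0.10 without (-0.75 to 0.54, adjusted p = 0.877), intervals that still hold differences of 0.65 and -0.75.

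Glul (ENSMUSG00000026473, chromosome 1, 153899944 to 153909723) stood at 84.3, 152 and 99.7 CPM in the controls, 128, 134 and 98.9 CPM with stereotypy and 117, 89.4 and 168 CPM without. Each group overlapped with each other one, and the highest libraries were no stereotypy replicate 3 and control replicate 2. It differed from the controls by 0.13 with stereotypy (-0.41 to 0.67, adjusted p = 0.778) and by 0.15 without (-0.39 to 0.69, adjusted p = 0.765). Its exons overlap those of Teddm2 on the opposite strand, listed at up to 4.13 CPM, and the use of strand in counting is not given in the sources used here.

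Of the genes of coupling, water and ion transport, Gja1 (ENSMUSG00000050953, chromosome 10, 56377330 to 56402513) stood at 2.82, 2.80 and 3.25 CPM in the controls and 7.66, 8.74 and 7.34 CPM with stereotypy. Without stereotypy it stood at 5.97, 2.86 and 3.72 CPM, where replicate 1 was high and replicate 2 lay within the controls. Every stereotypy library was above every other library. Gja1 was higher with stereotypy than in the controls by 1.17 (0.72 to 1.62, adjusted p = 0.0123) and than without stereotypy by 0.82 (0.38 to 1.27, adjusted p = 0.0331). The group without stereotypy differed from the controls by 0.35 (-0.10 to 0.79, adjusted p = 0.351). The call against the controls was lost without stereotypy replicate 2 (1.11, adjusted p = 0.0670), and that between the deleted groups was lost without any 1 of their 6 libraries (0.0610 to 0.108).

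Aqp4 (ENSMUSG00000024411, chromosome 18) stood at 1.23, 1.58 and 1.50 CPM in the controls, 4.65, 5.46 and 3.62 CPM with stereotypy and 3.67, 1.74 and 2.09 CPM without. Both deleted groups were above all controls, and no stereotypy replicate 1 was above the lowest stereotypy library. Aqp4 was higher with stereotypy than in the controls by 1.18 (0.71 to 1.66, adjusted p = 0.0155), a call lost without stereotypy replicate 1 (0.0522) or 2 (0.0791). It differed by 0.48 without stereotypy against the controls (0.01 to 0.96, adjusted p = 0.214) and by 0.70 between the deleted groups (0.22 to 1.17, adjusted p = 0.0624), which did not pass.

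Slc4a4 (ENSMUSG00000060961, chromosome 5, 88886818 to 89239653), the most abundant of the 10 in CPM, stood at 289, 288 and 249 CPM in the controls, 387, 366 and 429 CPM with stereotypy and 255, 275 and 229 CPM without. The stereotypy libraries were above all others and the other groups overlapped, with means of 275 ± 22.7 and 253 ± 23.1 CPM (SD, n = 3 each). Slc4a4 was higher with stereotypy by 0.51 than in the controls (0.29 to 0.74, adjusted p = 0.0207) and by 0.64 than without stereotypy (0.42 to 0.86, adjusted p = 0.0154). The call against the controls was lost without control replicate 3 (0.0558) or without any 1 stereotypy library (0.0566 to 0.0736). That between the deleted groups was lost without stereotypy replicate 2 (0.0579) or 3 (0.0758) or no stereotypy replicate 1 (0.0610) or 2 (0.0613).

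Of the cytosolic enzymes, Aldoc (ENSMUSG00000017390, chromosome 11, 78322968 to 78327781), a glycolytic aldolase, stood at 22.9, 19.7 and 22.4 CPM in the controls, 29.3, 37.2 and 29.2 CPM with stereotypy and 35.2, 30.3 and 35.2 CPM without. All 6 TrkB-deleted libraries were above all controls, and the deleted groups overlapped. Aldoc was higher than in the controls by 0.53 with stereotypy (0.26 to 0.81, adjusted p = 0.0366), by 0.61 without (0.33 to 0.88, adjusted p = 0.0162) and by 0.57 over both groups (0.33 to 0.81, adjusted p = 0.0128). Between the deleted groups it differed by -0.08 (-0.35 to 0.20, adjusted p = 0.713). The call over both groups held in all 20 alternatives, 9 of them with 1 library left out, whereas that of the stereotypy group alone held in only 1 of those 9, the one without no stereotypy replicate 3 (0.0527 to 0.143 in the other 8). The call of the group without stereotypy was lost without its replicate 1 (0.0797).

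Aldh1l1 (ENSMUSG00000030088, chromosome 6, 90486427 to 90600203), a folate enzyme whose promoter is in common use to mark astrocytes, stood at 1.86, 2.15 and 3.07 CPM in the controls, 3.01, 2.86 and 3.21 CPM with stereotypy and 3.39, 2.91 and 4.26 CPM without. Control replicate 3 lay within both deleted groups, so neither separated from the controls. Aldh1l1 differed from the controls by 0.28 with stereotypy (-0.12 to 0.67, adjusted p = 0.370) and by 0.43 without (0.04 to 0.83, adjusted p = 0.181), and by 0.36 over both groups (adjusted p = 0.226).

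Of the structural and calcium-binding proteins, Gfap (ENSMUSG00000020932, chromosome 11, 102887336 to 102900912), the filament protein that rises in reactive astrocytes, stood at 1.01, 1.95 and 2.18 CPM in the controls, 3.87, 3.79 and 3.62 CPM with stereotypy and 5.22, 2.55 and 3.72 CPM without. All 6 deleted libraries were above all controls, and the stereotypy libraries fell inside the range of the group without. Gfap was higher than in the controls by 0.83 over both groups (0.39 to 1.27, adjusted p = 0.0368), while each group by itself did not pass, with 0.84 (adjusted p = 0.0606) and 0.82 (adjusted p = 0.0584). The call over both groups was lost without any 1 of 7 libraries, all but control replicate 3 and no stereotypy replicate 2 (0.0562 to 0.135).

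S100b (ENSMUSG00000033208, chromosome 10, 76253853 to 76261159) stood at 5.94, 2.94 and 5.89 CPM in the controls, 9.31, 7.74 and 8.15 CPM with stereotypy and 8.79, 5.46 and 9.64 CPM without. The stereotypy libraries were above all controls, and no stereotypy replicate 2 lay within them. S100b differed from the controls by 0.71 with stereotypy (0.17 to 1.25, adjusted p = 0.114) and by 0.61 without (0.07 to 1.15, adjusted p = 0.170), and neither passed. Its gene body overlaps that of Dip2a on the opposite strand, listed at up to 46.9 CPM, though their annotated exons do not overlap.

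**Figure D2:**
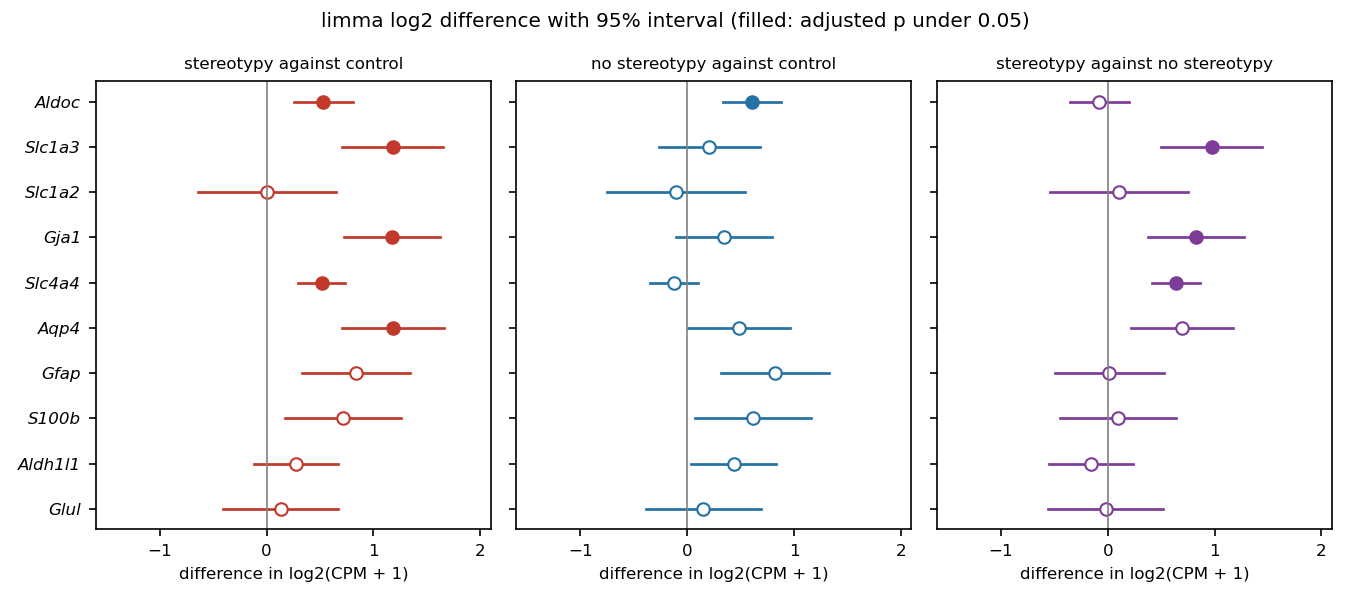
Difference in log2(CPM + 1) between groups for each of the 10 astrocyte markers with its 95% interval from limma (filled symbols, adjusted p under 0.05 over 13695 genes). Filled symbols are Aldoc, Slc1a3, Gja1, Slc4a4 and Aqp4 for stereotypy against control, Aldoc for no stereotypy against control, and Slc1a3, Gja1 and Slc4a4 between the deleted groups.

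Counted over the 10 markers, 5 were higher and 0 lower with stereotypy than in the controls, where 3.58% of all genes tested were called higher. Without stereotypy 1 was higher and 0 lower than in the controls (3.76% of all genes higher), and between the deleted groups 3 were higher and 0 lower with stereotypy (6.61%). Over both deleted groups against the controls 4 were higher, namely Aldoc, Gja1, Aqp4 and Gfap, and 0 lower (3.67%). The median log2 difference of the 10 was 0.62, 0.39, 0.10 and 0.62 in these 4 comparisons, beside 0.05, 0.03, 0.02 and 0.04 over all genes tested. Without overlap between the libraries compared, 7 markers were higher with stereotypy than in the controls, against 18% of all genes, and the 3 that overlapped were Slc1a2, Glul and Aldh1l1. Without stereotypy Aldoc, Aqp4 and Gfap were higher without overlap (3 of 10, against 14.9% of all genes), and between the deleted groups Slc1a3, Gja1 and Slc4a4 were (3 of 10, against 20.8%). Over all 6 deleted libraries against the controls this held for Aldoc, Aqp4 and Gfap (3 of 10, against 6.05%).

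The counts turned on single libraries. Without stereotypy replicate 2, 0 of the 10 passed with stereotypy against the controls and 0 between the deleted groups. In these comparisons 7 and 4 had an unadjusted p under 0.05 (limma), a threshold at which the share of all genes is not given here. Over all genes the number called in these comparisons fell from 699 to 124 and from 1398 to 1. Between the deleted groups 0 markers were also called when replicate 3 with stereotypy, or replicate 1 or 2 of the group without it, was left out, each with 4 at an unadjusted p under 0.05 and 0 genes called in the whole table. Against the controls the number with stereotypy was 3 when control replicate 3 was left out, 2 when stereotypy replicate 1 was and 3 when stereotypy replicate 3 was. All genes called in that comparison were then 368, 283 and 247. The sizes moved less than the calls: with any 1 library left out, the difference with stereotypy against the controls was 1.11 to 1.22 for Gja1, 0.998 to 1.28 for Slc1a3, 1.07 to 1.31 for Aqp4 and 0.44 to 0.57 for Slc4a4. DESeq2 on the recovered reads called 6 markers with stereotypy against the controls, 2 without stereotypy, 3 between the deleted groups and 5 over both, and edgeR called 5, 1, 3 and 3. DESeq2 also called more genes in all, 1522, 1509, 2343 and 1326 in either direction. The main fit called 699, 927, 1398 and 784, and edgeR 643, 904, 1335 and 729. The further DESeq2 markers are therefore not read as stronger support.

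**Figure D3:**
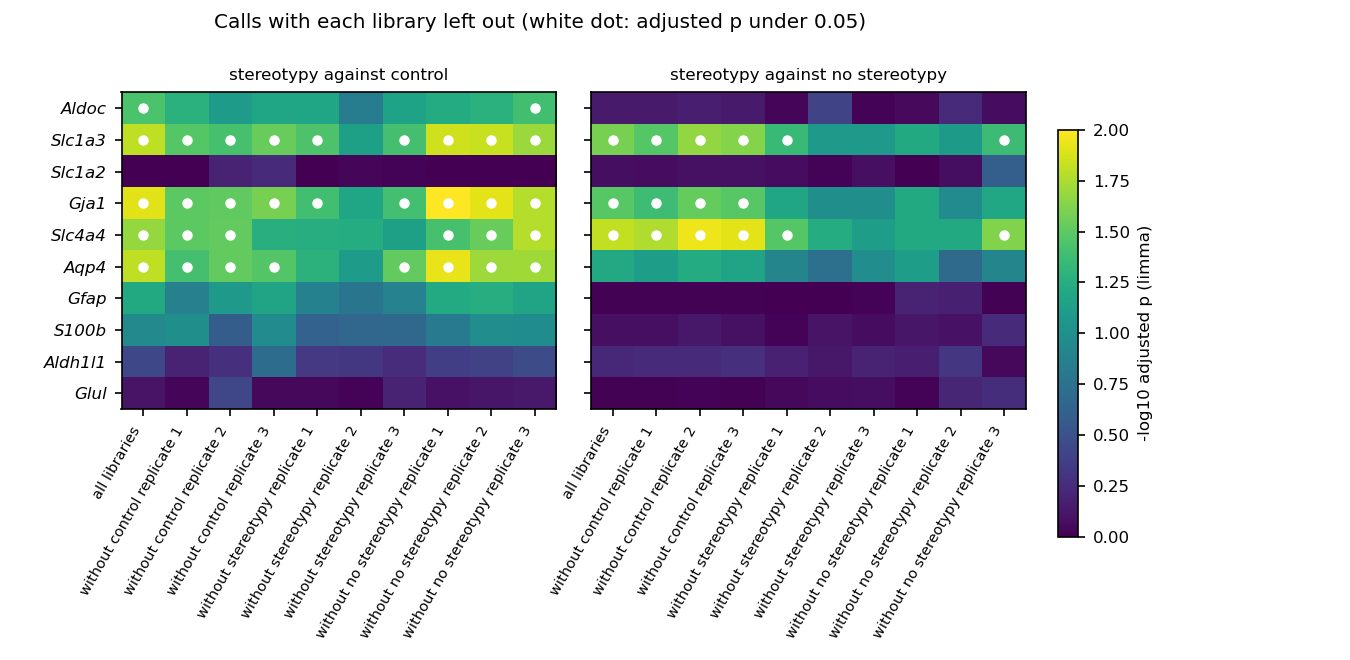
Adjusted p of each marker as -log10, for all libraries and with each library left out in turn (white dots, adjusted p under 0.05), for stereotypy against control and stereotypy against no stereotypy. The column without stereotypy replicate 2 holds 0 dots in both panels.

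Single libraries led several markers at once. Stereotypy replicate 2 was the highest of all 9 libraries for 4 markers (Aldoc, Slc1a3, Gja1 and Aqp4), and no stereotypy replicate 3 for 4 others (Slc1a2, S100b, Aldh1l1 and Glul). No stereotypy replicate 2 was the lowest of its group for 9 of the 10, all but Slc4a4. The mean of the markers' z-scores over the 9 libraries was -0.94, -0.89 and -0.41 in the controls, 0.65, 0.87 and 0.48 with stereotypy and 0.37, -0.60 and 0.47 without, so that no stereotypy replicate 2 lay among the controls. Across the 9 libraries Aqp4, Gja1, Slc1a3 and Gfap followed this mean most closely (Pearson r of 0.90, 0.90, 0.87 and 0.87), and Slc4a4, Glul and Slc1a2 least (0.43, 0.41 and 0.35), as a description over libraries that share their groups, each marker being part of the mean. The 3 least alike were also the 3 most abundant in CPM. Without Slc4a4, the sum of the remaining 9 was 341 ± 57.7 CPM in the controls, 375 ± 41.9 with stereotypy and 364 ± 122 without (SD, n = 3 each), a ratio of 1.10 and 1.07 to the controls, against 1.25 and 1.002 with it. In that sum the stereotypy libraries overlapped with both other groups.

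Of the protein-coding genes outside the list, those whose level followed the mean of the markers most closely over the 9 libraries were Zcchc24, Kcnj10, Rragb, Olig2, Litaf, Cd9, Srp72 and Emp2, with Pearson r of 0.94 to 0.98. Kcnj10, which encodes the potassium channel Kir4.1 of astrocytes and oligodendrocytes, stood at 4.49, 5.35 and 8.28 CPM in the controls, 12.2, 12.8 and 9.45 CPM with stereotypy and 10.3, 5.60 and 10.03 CPM without. Like most of the markers it had no stereotypy replicate 2 as the lowest of its group. It was picked for following their mean over these same libraries, so this likeness is no separate support. Olig2, a transcription factor of the oligodendrocyte lineage, stood at 1.12 to 1.81, 2.55 to 3.44 and 1.26 to 2.92 CPM.

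Markers of other cells of the striatum moved with the astrocyte markers in part. The summed level of 8 oligodendrocyte precursor markers was 12.8 to 21.8 CPM in the controls, 23.2 to 35.2 with stereotypy and 17.5 to 30.0 without, and that of 10 microglia markers 17.5 to 34.7, 38.9 to 48.0 and 22.6 to 29.8 CPM. For both lists the stereotypy libraries were above all controls. Of 12 oligodendrocyte markers the sum was 596 to 1256, 1227 to 2185 and 788 to 1809 CPM, with overlap between all groups. Of 12 endothelial and mural markers it was 22.2 to 46.4, 43.7 to 97.0 and 13.8 to 28.8 CPM, and the highest value was that of stereotypy replicate 2, the library without which the astrocyte marker calls of the stereotypy group against the controls and against the group without stereotypy ended. In that list 9 of the 10 tested markers were higher with stereotypy than in the controls by their log2 difference, and Tagln went the other way. Tagln made up much of the control sums, at 13.7, 9.59 and 28.3 CPM. It stood at 2.22, 2.02 and 1.22 CPM with stereotypy and 1.42, 1.48 and 1.70 CPM without. With stereotypy against the controls, 1 of 12 tested oligodendrocyte markers, 1 of 7 precursor markers and 1 of 10 microglia markers passed as higher, as did 2 of 10 endothelial and mural markers with 1 lower, beside 3.58% of all genes called higher. The median log2 differences of these 4 lists were 0.66, 0.73, 0.32 and 1.04, beside 0.62 for the astrocyte markers and 0.05 over all genes. They were 0.53, 0.38, -0.28 and -0.09 without stereotypy against the controls (astrocyte 0.39), and 0.07, 0.36, 0.58 and 1.07 between the deleted groups (astrocyte 0.10). With stereotypy against the controls, 4, 6, 4 and 10 of the tested markers had an unadjusted p under 0.05 in either direction (limma), beside 7 of 10 astrocyte markers. The 10 include Tagln, which was lower. For no count at an unadjusted p under 0.05 is the share of all genes given here, so none is read as an excess. No marker of these 4 lists was at 0 in all libraries, and 2 of the endothelial and mural list stayed below 1 CPM in every library. The part of these cells in the astrocyte result was not tested. The D2 markers, by contrast, had medians of -0.74 with stereotypy against the controls and -1.23 between the deleted groups. Without stereotypy against the controls their median was 0.49, with 4 of 5 positive, the same direction as the astrocyte markers. In these comparisons 0 of 5 tested passed the threshold (limma, 1, 5 and 0 at an unadjusted p under 0.05).

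**Figure D4:**
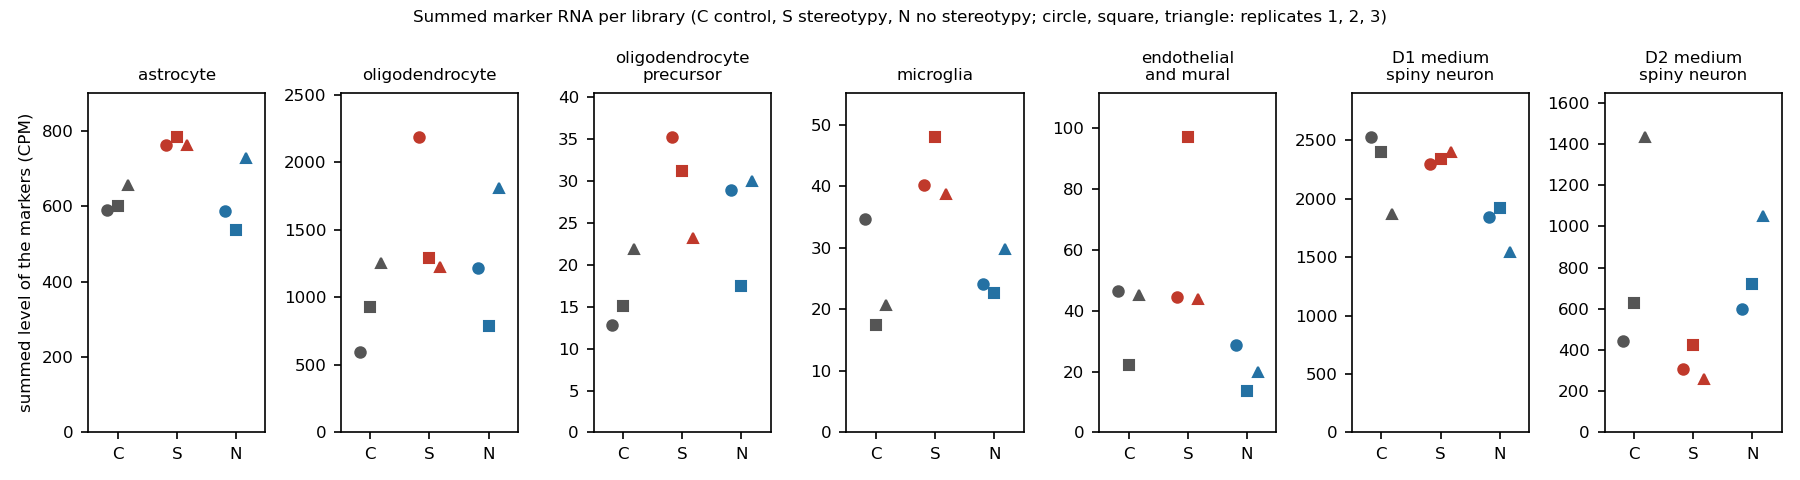
Summed level in CPM of the marker genes of 7 cell types in every library (C control, S stereotypy, N no stereotypy; circle, square and triangle are replicates 1, 2 and 3), each panel with its own axis from 0. The astrocyte sums with stereotypy, 761 to 783 CPM, lie above all 6 others, and the endothelial and mural sum of stereotypy replicate 2, 97.0 CPM, stands apart. Without Slc4a4 (not drawn) the astrocyte sums of the groups overlapped. They were 302, 312 and 407 CPM in the controls, 374, 417 and 333 CPM with stereotypy and 331, 262 and 499 CPM without.

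Beyond the 10 markers, 98 further astrocyte genes in 6 functional lists were examined, of which 79 passed the filter. With stereotypy against the controls 11 were higher and 1 lower, without stereotypy 1 higher and 1 lower, and between the deleted groups 11 were higher and 4 lower with stereotypy. Those higher against the controls include Cpt1a and Slc7a10, which passed the filter only through the stereotypy libraries. Over all genes tested, 3.58%, 3.76% and 6.61% were called higher in these comparisons, so that 1 of 79 without stereotypy is below the share of all genes. Their medians were 0.28, 0.17 and 0.27, beside 0.05, 0.03 and 0.02 over all genes tested. Over both deleted groups 4 were higher and 1 lower, where 3.67% of all genes tested were called higher. For the lower calls, the numbers over all genes give the comparison. Of 699 genes called with stereotypy against the controls 490 were higher, and of 927 without stereotypy 515 were. Between the deleted groups 905 of 1398 were higher with stereotypy, and over both groups 503 of 784. Each gene named from these lists for a difference of the stereotypy group, against the controls or against the group without stereotypy, lost that call without stereotypy replicate 2, and those between the deleted groups also ended without stereotypy replicate 3 or without no stereotypy replicate 1 or 2.

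Among 12 tested genes of potassium, water and ion homeostasis, Mlc1, an endfoot membrane protein, stood at 3.97, 2.57 and 2.64 CPM in the controls, 7.48, 8.81 and 7.16 CPM with stereotypy and 5.71, 3.39 and 3.30 CPM without. Mlc1 was higher by 1.13 than in the controls (adjusted p = 0.0155) and by 0.81 than without stereotypy (adjusted p = 0.0368), with no overlap, and without stereotypy replicate 2 the adjusted p was 0.0791 and 0.112.

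Among 17 tested genes of energy and lipid metabolism, 3 were higher with stereotypy than in the controls. Acsbg1, an acyl-CoA synthetase, stood at 2.79, 2.80 and 3.07 CPM in the controls, 6.02, 6.81 and 5.65 CPM with stereotypy and 4.06, 3.36 and 3.33 CPM without. All stereotypy libraries were above all others and all deleted libraries above all controls. Acsbg1 was higher by 0.88 than in the controls (adjusted p = 0.00934), by 0.64 than without stereotypy (adjusted p = 0.0260) and by 0.56 over both groups (adjusted p = 0.0261). Without stereotypy replicate 2 these 3 values were 0.0562, 0.0868 and 0.0689. Pla2g7, a phospholipase that cleaves platelet-activating factor, was higher by 0.67 and Cpt1a, which loads fatty acids onto carnitine for mitochondria, by 0.83 against the controls (0.115 and 0.138 without stereotypy replicate 2). Cpt1a stood at 0.52, 0.40 and 0.64 CPM in the controls, 1.50, 2.25 and 1.40 CPM with stereotypy and 1.24, 0.59 and 0.89 CPM without. It passed the filter only through the stereotypy libraries, where it is high, so its difference from the controls was favoured by the filter and is no support. Clu, a secreted chaperone, was lower with stereotypy than without, at -0.52 (97.9 ± 6.64 against 142 ± 19.1 CPM, SD, n = 3 each; adjusted p = 0.0695 without stereotypy replicate 2), though neither group differed from the controls past the threshold. Ldhb, a lactate dehydrogenase subunit and the most abundant gene of the list, stood at 531 ± 67.4, 426 ± 19.6 and 454 ± 17.5 CPM.

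Among 18 tested genes of secreted and surface proteins, 5 were higher with stereotypy than in the controls and 0 lower. They included the thyroid hormone transporter Slco1c1 (1.47), which endothelial cells also express, the proteoglycan Bcan (0.96) and the receptors Gpr37l1 (0.93) and Ntsr2 (0.60). Without stereotypy replicate 2 their adjusted p was 0.110, 0.133, 0.172 and 0.115. Between the deleted groups Slco1c1 (1.56), the phagocytic receptor Mertk (1.0) and Ntsr2 (0.64) were higher with stereotypy, with 0.0715, 0.0732 and 0.0740 without that library. Cst3, the secreted protease inhibitor cystatin C, was the gene of these lists that passed as higher without stereotypy against the controls: it stood at 104, 88.5 and 94.0 CPM in the controls, 128, 121 and 115 CPM with stereotypy and 139, 123 and 122 CPM without. All deleted libraries were above all controls, as for Aldoc, and the difference was 0.42 without stereotypy (adjusted p = 0.0226) and 0.38 over both groups (adjusted p = 0.0203). The first call was lost without no stereotypy replicate 1 (0.110) or 2 (0.0600), the second without control replicate 2 (0.0629), control replicate 3 (0.0571), stereotypy replicate 2 (0.0543) or no stereotypy replicate 1 (0.0519). The most abundant gene here, the proteoglycan Ncan, stood at 246 ± 34.4, 243 ± 25.6 and 273 ± 2.40 CPM.

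Among 16 tested transcription factors and fate genes, Id4, an inhibitor of basic helix-loop-helix factors, was the gene that fell in both deleted groups. It stood at 132, 124 and 127 CPM in the controls, 85.6, 105 and 103 CPM with stereotypy and 78.3, 73.0 and 74.7 CPM without. The 3 groups did not overlap. Id4 fell by 0.39 with stereotypy (adjusted p = 0.0406) and by 0.76 without (adjusted p = 0.00170), and the deleted groups differed by 0.37 (adjusted p = 0.0359). The fall without stereotypy passed in all 21 alternatives, 9 of them with 1 library left out. That with stereotypy passed only without no stereotypy replicate 3 among those 9 (0.0596 to 0.102 in the other 8). The direction is opposite to that of the 5 markers called with stereotypy, and Id4 is also transcribed in neurons. Zbtb20 was higher with stereotypy than without by 0.64 and Nfix lower, at -1.43 (adjusted p = 0.0732 and 0.0720 without stereotypy replicate 2, and 0.121 for Id4). Among 8 tested filament and reactive genes Vim (1.45) and Cp (1.52), which vascular cells also express, were higher with stereotypy than without (0.107 and 0.0912 without that library), and 0 passed against the controls (limma, 3 with stereotypy and 0 without at an unadjusted p under 0.05). Of 8 tested genes of glutamate and GABA uptake and metabolism, the amino acid exchanger Slc7a10 was higher with stereotypy than in the controls by 0.93 (adjusted p = 0.0496, or 0.131 without stereotypy replicate 2), and the retinaldehyde enzyme Aldh1a1 lower than without stereotypy, at -0.86 (0.0984 without that library). Slc7a10 stood at 1.45, 0.71 and 0.49 CPM in the controls, 3.29, 2.31 and 2.03 CPM with stereotypy and 1.78, 0.87 and 0.99 CPM without. Like Cpt1a it passed the filter only through the stereotypy libraries, so its difference from the controls is no support either.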

How the data were processed

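Polyribosomal RNA precipitated from dorsal striatum was sequenced in 9 libraries, 3 per group. The authors deposited 1 table per library with CPM for 47729 Ensembl identifiers. Per the submitters' processing notes, TopHat and GRCm38 were used; the sources used here do not give the counter, its annotation or its strand setting. Every CPM value was a whole multiple of 1 read (tolerance 0.1 reads; 100% of values), so read counts were recovered. GENCODE M21 gave names and positions for 47310 identifiers (99.12%); the D2 marker Gpr52 was not matched.

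The 13695 genes that reached 1 CPM in 3 libraries or more were tested on log2(CPM + 1) in 1 limma fit of all 9 libraries (limma 3.58.1, R 4.3.3, variance trend, 6 residual degrees of freedom), adjusted by Benjamini-Hochberg over all genes. An exact permutation test of 3 against 3 libraries cannot go below p = 0.1 and was not used. Alternatives were pseudocounts of 0.25 and 4, no filter or a minimum mean of 5 CPM, TMM and median-of-ratios rescaling, array weights, a replicate block, fits of 6 libraries, leaving out each library, edgeR 4.0.16 and DESeq2 1.42.0 on recovered reads, and, for the order, the longest transcript. Leaving out replicate 3 of all groups was chosen after seeing the data.

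The markers and gene lists were chosen with earlier results of these data known. Named from the further lists are genes past the threshold in any comparison (at most 3 per direction and comparison, by size) and the most abundant gene, and from outside them the 8 genes most like the markers' mean. Some genes that this rule picked are not reported here.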

Additional observations from a re-analysis of the deposited data

Results flagged for a closer look

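Genes are given here where the difference between the stereotypy group and the group without stereotypy passed its own test (limma, adjusted p under 0.05), as the log2 difference of stereotypy minus no stereotypy. Among the 10 astrocyte markers these were Slc1a3 (0.97), Gja1 (0.82) and Slc4a4 (0.64). Of the further astrocyte genes, Slco1c1 (1.56), Cp (1.52), Vim (1.45), Mertk (1.0), Mlc1 (0.81), Acsbg1 (0.64), Ntsr2 (0.64), Zbtb20 (0.64) and Id4 (0.37) were higher with stereotypy. Clu (-0.52), Aldh1a1 (-0.86) and Nfix (-1.43) were lower. Markers of vessels that differed were Slco1a4 (1.76), Flt1 (1.62) and Ly6c1 (1.12), and of microglia Csf1r (1.04) and P2ry12 (0.80). Markers of medium spiny neurons that differed were Slc35d3 (0.65), Drd1 (0.57), Foxp1 (0.58), Foxp2 (0.58) and Pde10a (0.47). The targeted gene Ntrk2 differed by 1.05, and the cell source of its remaining RNA was not tested. All these calls ended when replicate 3 with stereotypy, or replicate 1 or 2 of the group without it, was left out, since 0 genes of the table were then called, and without stereotypy replicate 2 the table held 1 call. P2ry12 reached 1 CPM only in the 3 stereotypy libraries, so it passed the filter through the group where it is high and had to differ; it was below the filter, and so not tested, when one of them was left out.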

How the results depend on the processing

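The count of astrocyte markers called was 5 with stereotypy against the controls, 1 without, 3 between the deleted groups and 4 over both groups. With 1 library left out it ranged from 0 to 5, 0 to 2, 0 to 3 and 1 to 5. Without the filter on low levels it was 3, 1, 1 and 1, where more genes were tested, and with a mean of at least 5 CPM 2 over both groups, where 7 of the 10 were tested. Array weights and DESeq2 each gave 2 without stereotypy against the controls, where they called 1873 and 1509 genes in all. With replicate 3 of all groups left out, chosen after seeing the data, the counts were 0, 0, 0 and 1. All genes called were then 186, 822, 35 and 627. The cause was not tested in the other cases.

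Libraries of the same number were not taken as pairs, because the numbers are not said to mark a shared litter or day. Their deviations from the group means correlated at -0.0798 to 0.406, with 4 of 9 over 0.1. A library correlated best with its own number in 12 of 18 cases, so these values do not settle whether the libraries were paired. With the replicate block the counts were 6, 1, 3 and 4, and S100b passed with stereotypy (adjusted p = 0.0430) and over both groups (0.0330), where Gfap did not (0.0540). All genes called with the block were 917, 1099, 1788 and 880, beside 699, 927, 1398 and 784 without it.

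Of the markers' values under the alternatives, 703 kept their direction and their side of the threshold, 71 were no longer past it, 10 newly passed and 34 reversed. The reversed ones were differences that passed no test. For Slc1a2 with stereotypy against the controls (0.00), pseudocount 4 gave -0.00086, median-of-ratios rescaling -0.0542, TMM -0.0564, array weights -0.0309, edgeR -0.12 and DESeq2 -0.12, and leaving out 1 library -0.27 to 0.28. With 1 library left out Slc1a2 ranged from -0.44 to 0.17 without stereotypy against the controls, -0.12 to 0.44 between the deleted groups and -0.32 to 0.22 over both, the last at 0.0840 without the third libraries. Between the deleted groups Aldoc reached 0.0181 with array weights and 0.0160 without the third libraries, and Gfap -0.0441 with edgeR and -0.0463 with DESeq2. With 1 library left out Gfap ranged there from -0.19 to 0.22 and S100b from -0.12 to 0.24. For Glul, 1 library left out gave -0.0492 to 0.37 with stereotypy, -0.0882 to 0.39 without, -0.23 to 0.22 between the deleted groups and -0.0404 to 0.38 over both. Without the third libraries it was -0.15 without stereotypy and 0.35 between the deleted groups, where array weights gave 0.21.

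Without Slc4a4 the log2 ratio of the summed markers with stereotypy fell from 0.32 to 0.14 against the controls and from 0.32 to 0.04 between the deleted groups. Depth limits the low markers: Gfap, Aqp4, Gja1 and Aldh1l1 rest on 37 to 272 reads a library.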
